A study of Mus musculus with 6 samples.

Results

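Baseline gene expression was described in wild-type (WT) bone marrow-derived macrophages (BMMs), the cells against which the study set its knockout cells. The members were the 3 libraries that the labels give as WT (replicates 1, 2 and 3), out of 6 libraries in the series. The WT cells came from the leg bone marrow of male C57BL/6J mice aged 8 weeks, with WT as the genotype label. Marrow monocytes were differentiated into macrophages and made immortal with the large T antigen of the virus SV40, so they were dividing lines and not freshly isolated cells. They were kept in α-MEM with 10% FBS and 120 ng/ml CSF-1, and are labelled as passages 3 to 5. The question addressed here was which genes these macrophages expressed, how highly, and how closely the 3 libraries resembled each other. The *Aif1* knockout libraries were not used, and no test between genotypes was run. The libraries are described as independent animals, while the labels do not say whether each is a separate line, so the spread given here is that between these 3 libraries and may be technical in part.

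Macrophages are phagocytes of the innate immune system that engulf and digest particles, dying cells and microbes in acidic lysosomes. CSF-1, the growth factor supplied in the medium, acts through its receptor CSF1R and is needed for the survival and division of macrophages grown from marrow. The identity of the lineage is set by transcription factors such as PU.1, C/EBP and MAF family proteins, and macrophages sense their surroundings through Toll-like receptors, Fc receptors, complement receptors, lectins and scavenger receptors.

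Libraries were made from total RNA after removal of ribosomal RNA and read from a single end, and the deposited values were raw counts per gene. Gene totals were 23253869 counts in WT replicate 1, 26642892 in replicate 2 and 29314253 in replicate 3. Levels of a single gene across libraries are given as CPM, the counts scaled so that all genes of a library sum to 1000000, in the order of replicates 1, 2 and 3. Levels of different genes are compared only after the counts were divided by the length of each gene's exons and scaled to the same sum over all genes (TPM), as the mean ± SD of the 3 libraries (n = 3 throughout). A gene was taken as expressed with at least 1 CPM in each library, which was 23.3, 26.6 and 29.3 counts. With at most 3 counts in the 3 libraries together it was taken as not detected, which corresponds to at most 0.0379 CPM of the summed counts and covers counting error only. Every other gene was taken as low. Reads outside annotated genes, which can include reads of introns, were 32.4%, 40.4% and 25.5% of the counted reads, highest in replicate 2 and lowest in replicate 3. Whether the counting kept the strands of overlapping genes apart was not settled by the sources, so counts of genes that overlap another gene are uncertain. Among the expressed genes of the lists named here, *Alas2*, *Ccr10*, *Ciita*, *Cx3cr1*, *Cxcr6*, *Dusp1*, *Gpr34*, *Htra2*, *Irf5*, *Prg4* and *Vcan* overlap a gene on the other strand that had more counts than they did.

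The labelled cell type was set beside 7 macrophage markers, and all 7 were expressed in every library. These markers were chosen with earlier results of these data known, so their expression describes the cells and does not test the label. *Cd68*, a glycoprotein of macrophage lysosomes (GRCm38 chr11:69664213-69666153), had 959, 916 and 982 CPM, with 1841 ± 64.4 TPM and rank 14 of 21684 nuclear protein-coding genes per length. *Gpnmb*, a lysosomal transmembrane glycoprotein (chr6:49036546-49070929), had 4738, 4557 and 4674 CPM, with 1739 ± 99.4 TPM and rank 16. Both stood among the 20 most abundant of these genes per length, and their libraries lay close together, with coefficients of variation (CVs) of the CPM of 3.53% and 1.97%. *Lyz2*, lysozyme M, which cleaves bacterial cell walls (chr10:117277331-117282321), had 725, 578 and 692 CPM, with 1226 ± 124 TPM and rank 24. *Csf1r*, the CSF-1 receptor, had 1502, 1482 and 1611 CPM, with 644 ± 12.8 TPM and rank 70. Replicate 2 was the lowest library for *Lyz2*, and the 3 libraries of *Csf1r* were nearly level. *Mmp12*, macrophage elastase (chr9:7344381-7369499), had 930.2, 1025 and 851 CPM and 316 ± 48.2 TPM, at rank 189. *Adgre1*, which encodes the F4/80 antigen (chr17:57358691-57483527), had 289, 261 and 287 CPM and 209 ± 10.7 TPM, at rank 330. *Lpl*, lipoprotein lipase (chr8:68880491-68907448), had 496, 477 and 344 CPM and 103 ± 24.6 TPM, at rank 888. *Lpl* had the widest spread of the 7 markers and was lowest in replicate 3. The order depended on the scale: by CPM, which favours long transcripts, *Gpnmb* ranked 5, *Csf1r* 25, *Cd68* 53, *Mmp12* 56, *Lyz2* 94, *Lpl* 210 and *Adgre1* 510. With the longest transcript in place of the union of exons as the length, *Lpl* ranked 348 and *Adgre1* 474.

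**Figure D1:**
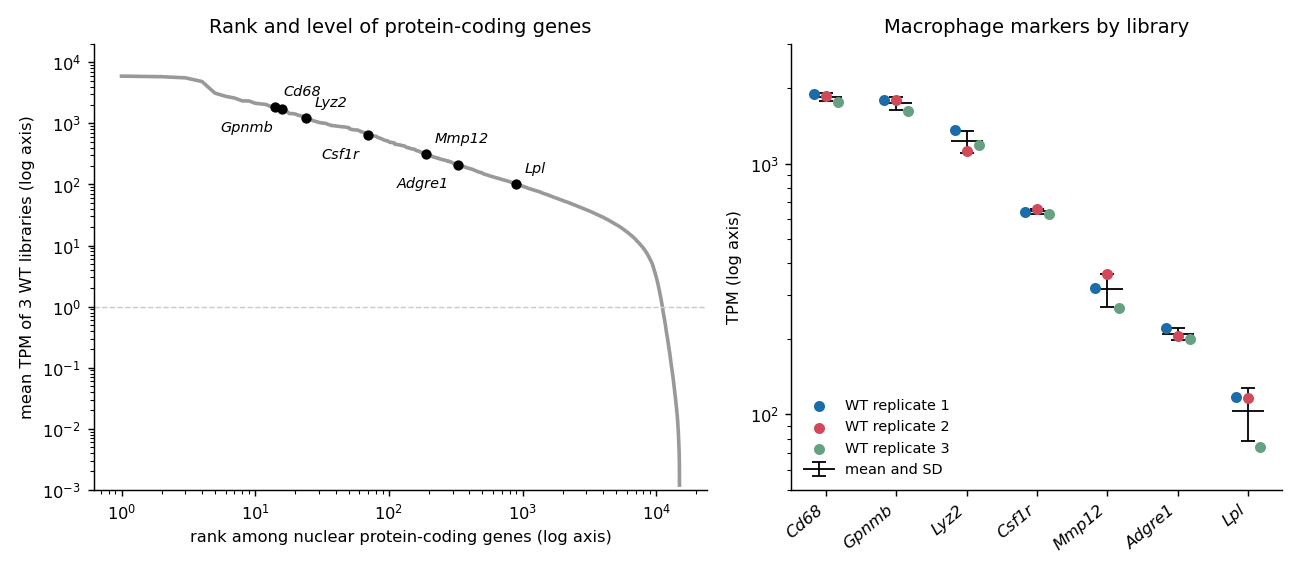
Left, mean TPM of 3 WT libraries (log axis) against the rank of each nuclear protein-coding gene (log axis), with the 7 macrophage markers as points and a dashed line at 1 TPM; right, the TPM of the same markers in each WT library (log axis) with the mean and SD as bars. The markers ran from rank 14 for *Cd68* (1841 TPM) to rank 888 for *Lpl* (103 TPM), and in *Lpl* replicate 3 lay below the other libraries.

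*Lyz2* lies beside a closely related copy, *Lyz1* (chr10:117287797-117292868), so a read that fits both genes could be counted for either. *Lyz1* had 21.2, 16.9 and 17.8 CPM and 35.9 ± 4.98 TPM, at rank 3245, far under *Lyz2* in each of the 3 libraries. Both genes lie on the minus strand of chromosome 10. The 201 bases before each gene that end 49 bases short of its RefSeq start are shown because these neighbours differ so much in level while their sequences are close. The capitals mark AGGAAG or its reverse complement CTTCCT, letters that hold the GGAA core bound by ETS factors such as PU.1.
Lyz2 (GRCm38.p6 chr10:117282322-117282522, minus strand, 5′ to 3′): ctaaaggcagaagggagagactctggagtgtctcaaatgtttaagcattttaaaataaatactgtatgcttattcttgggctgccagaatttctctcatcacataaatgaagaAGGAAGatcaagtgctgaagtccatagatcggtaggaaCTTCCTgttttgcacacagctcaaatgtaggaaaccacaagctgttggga
Lyz1 (GRCm38.p6 chr10:117292918-117293118, minus strand, 5′ to 3′): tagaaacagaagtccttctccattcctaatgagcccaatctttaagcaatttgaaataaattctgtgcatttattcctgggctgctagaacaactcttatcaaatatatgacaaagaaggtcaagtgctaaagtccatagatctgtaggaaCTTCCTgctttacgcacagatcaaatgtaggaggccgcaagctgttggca
In a global alignment of both windows, 151 of 203 columns held the same base (74.4%) and 4 held a gap. AGGAAG was found on either strand 2 times in the *Lyz2* window and 1 time in the *Lyz1* window. It was found in 22.8% of the same windows of 16381 protein-coding genes with a promoter in the RefSeq table used here, so the match is common and is only a description of the letters.

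A further 18 macrophage markers were all expressed, so that the 25 markers of both lists were expressed, against 50.7% of all 21697 protein-coding genes, the background for every count of list members given here. *Fcer1g*, the signalling chain shared by Fc receptors, reached 1361 ± 16.4 TPM and *Tyrobp*, the DAP12 adaptor of TREM receptors, 758 ± 41.5 TPM. The 3 chains of C1q, the complement component that macrophages secrete, stood at 1288 ± 86.5 TPM (*C1qb*), 898 ± 51.2 TPM (*C1qa*) and 773 ± 64.9 TPM (*C1qc*). *C1qc* had 603, 534 and 714 CPM, highest in replicate 3 and lowest in replicate 2. Markers at the surface were lower, with 214 ± 18.9 TPM for *Cd14*, the lipopolysaccharide co-receptor, 98.2 ± 21.4 TPM for *Ptprc* (CD45) and 64.6 ± 5.05 TPM for *Itgam* (CD11b). The lowest 2 of the 25 markers were *Aif1* and *Apoe*. *Aif1*, the actin-bundling protein Iba1 that the study deleted in its other cells, had 9.46, 5.89 and 8.15 CPM, with 12.4 ± 2.74 TPM and rank 7053. *Apoe*, the lipid-carrying apolipoprotein E, had 4.69, 9.01 and 3.92 CPM, with 6.79 ± 3.52 TPM, and replicate 2 was the highest library. Both genes passed 1 CPM in each library but lay under the median of all expressed protein-coding genes, 19.5 TPM.

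Across the transcriptome, 10992 protein-coding genes were expressed (50.7%), 2846 were low (13.1%) and 7859 were not detected (36.2%). By level, 11097 nuclear protein-coding genes had a mean of at least 1 TPM, 7719 of at least 10 TPM, 924 of at least 100 TPM and 33 of at least 1000 TPM. Protein-coding genes took 87.7 ± 1.08% of all gene counts. The 10 most abundant nuclear genes by CPM took 4.75%, 4.48% and 4.97% of the nuclear protein-coding counts, the first 100 took 16.02 ± 0.653% and the first 1000 took 47.4 ± 0.654%. No single nuclear protein-coding gene dominated the libraries, since the highest by CPM, *Ctsd*, had 5704, 5212 and 6011 CPM.

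The most abundant nuclear protein-coding transcripts per length were mainly of secreted, lysosomal, cytoskeletal and iron-storage genes. *Spp1*, the secreted matrix protein osteopontin, was first with 4309, 4009 and 3749.8 CPM and 5950.3 ± 704 TPM. *Ctsd*, the lysosomal aspartic protease cathepsin D, had 5823 ± 169 TPM, *B2m*, the light chain of MHC class I, 5583 ± 406 TPM and *Actb*, cytoplasmic β-actin, 4853 ± 121 TPM. The SD of *Spp1* was larger than its distance to *Ctsd* and *B2m*, so these first 3 places were not separated by the replicate spread. *Lgals3* (galectin-3) followed with 3134 ± 136 TPM and *Psap*, the precursor of the saposins that help degrade sphingolipids, with 2606 ± 107 TPM. The ferritin light chain *Ftl1* had 2343 ± 155 TPM, its near-identical copy *Ftl1-ps1* 2780.3 ± 523 TPM and the heavy chain *Fth1* 1904 ± 111 TPM. Since a read was kept at 1 location only, the split between *Ftl1* and *Ftl1-ps1* is uncertain. The other genes among the first 15 were *Ifitm3*, an interferon-induced membrane protein (2331 ± 79.3 TPM), *Ctss* and *Ctsb* (cathepsins, described with the proteases), *Tmsb4x*, thymosin β4, which binds actin monomers (2047 ± 303 TPM), *Cd68* and *Lgals1*, galectin-1 (1818 ± 127 TPM). By CPM the first 5 were *Ctsd*, *Actb*, *Ctsb*, *Ahnak* and *Gpnmb*. *Ahnak*, a giant scaffold protein with very long exons, had 5019, 4694 and 4455 CPM but only 577 ± 62.8 TPM, at rank 85 per length.

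Ribosomal RNA was depleted without selection for poly(A), so RNAs without a poly(A) tail can stay in the libraries. Among genes annotated as noncoding, *Gm26917* had 22568, 20604 and 38931 CPM and *Malat1*, a long nuclear RNA, 8511, 12683 and 6076 CPM. *Rn7sk*, the small nuclear RNA that restrains the elongation factor P-TEFb, had 13593, 11979.8 and 17329 CPM. *Gm26917* and *Rn7sk* were highest in replicate 3, while *Malat1* was highest in replicate 2. These RNAs enter the totals behind CPM and TPM. Per length *Rn7sk* alone had 101670, 92656 and 118496 TPM, so differences in such RNAs between libraries also enter the SD of every TPM value. For example, *Etv3*, with 121 CPM in each library, had 29.2, 30.3 and 26.7 TPM. Genes annotated as rRNA took 0.00166%, 0.0114% and 0.0549% of the counts and were also highest in replicate 3. How far rRNA that escaped depletion adds to the counts of *Gm26917* was not tested. Mitochondrially encoded protein-coding genes, left out of the ranks, took 1.29%, 1.61% and 0.989% of the counts.

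Receptors for growth factors and cytokines were largely present, with 21 of 29 genes expressed. After *Csf1r*, the highest per length was *Csf2rb2*, a β chain of the IL-3 receptor, with 289, 304 and 283 CPM and 150.1 ± 14.4 TPM. *Csf2rb*, the β chain shared by the receptors for IL-3 and GM-CSF, had 177, 193 and 181 CPM and 61.4 ± 5.91 TPM. Both chains are near-identical, and reads shared between them may be counted for either. The specific α chains were lower, 28.7 ± 8.28 TPM for *Csf2ra* and 5.87 ± 1.54 TPM for *Il3ra*. *Il7r*, the α chain of the IL-7 receptor, best known from lymphocytes, had 167, 172 and 145 CPM and 84.5 ± 12.5 TPM, and its partner *Il2rg*, the common γ chain, 48.2 ± 2.51 TPM. Thus the IL-7 receptor α chain was the third gene of this list per length, at a distance from the next genes that was within its SD. *Il10rb*, a chain of the IL-10 receptor, followed with 82.2 ± 6.47 TPM and *Tgfbr1*, the type I receptor of TGF-β, with 77.00 ± 10.4 TPM. Both chains of the interferon-γ receptor and of the type I interferon receptor were expressed, from 42.8 ± 1.92 TPM for *Ifnar2* to 68.5 ± 5.90 TPM for *Ifngr1*. Receptors that mark other blood lineages were not detected, namely *Kit* (stem cell factor), *Flt3*, *Il5ra* and *Csf3r* (granulocyte colony-stimulating factor). Their counts were 0, 0 and 1 for *Kit*, 3, 0 and 0 for *Flt3* and 0 in each library for *Il5ra* and *Csf3r*. The receptors for IL-1 were low, with 2, 4 and 1 counts of *Il1r1* and 7, 7 and 14 of the decoy receptor *Il1r2*, genes named here after their values were seen.

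Of the TNF receptor family, 10 of 20 genes were expressed. *Tnfrsf1a* (TNFR1) had 173, 166 and 187 CPM and 164 ± 1.19 TPM, and *Tnfrsf1b* (TNFR2) had 162, 169.9 and 196 CPM and 112 ± 5.80 TPM. *Tnfrsf11a*, which encodes RANK, the receptor through which RANKL drives osteoclast formation, had 132, 128 and 117 CPM and 51.1 ± 5.85 TPM. Its decoy partner osteoprotegerin (*Tnfrsf11b*) and the B-cell receptors *Tnfrsf13c* and *Tnfrsf17* were not detected. Next came *Tnfrsf26*, a gene of a mouse cluster of related receptors, with 41.5 ± 1.32 TPM, and *Tnfrsf12a*, the TWEAK receptor, with 19.1 ± 1.39 TPM.

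Toll-like receptors, which recognise microbial molecules at the surface or in endosomes, were expressed in 10 of 12 cases. *Tlr13*, an endosomal sensor of bacterial ribosomal RNA, was the highest with 326, 301 and 306 CPM and 176 ± 13.6 TPM. *Tlr4*, the lipopolysaccharide receptor, had 288, 255 and 239 CPM and 114 ± 15.7 TPM. The sensors of single-stranded and double-stranded RNA followed, with 69.6 ± 11.2 TPM for *Tlr8* and 44.1 ± 7.45 TPM for *Tlr3*, and *Tlr2*, which binds lipoproteins, had 44.9 ± 1.88 TPM. In *Tlr4*, *Tlr8* and *Tlr3* replicate 1 was the highest library and replicate 3 the lowest. The lowest expressed members were *Tlr5*, the flagellin receptor, with 2.76 ± 0.296 TPM, and *Tlr1* with 4.57 ± 0.894 TPM. *Tlr11* and *Tlr12* had 0 counts in each library.

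Chemokine receptors were mostly low or absent, with 9 of 23 expressed, 8 low and 6 not detected. *Cxcr4*, the receptor that holds blood cells in the marrow through CXCL12, had 117, 102 and 102 CPM and 144 ± 16.4 TPM. Every other member was at or under the 11.2 ± 1.59 TPM of *Ccrl2*, a receptor that binds chemerin without signalling. *Ccr10* had 5.08 ± 1.86 TPM, *Cxcr6* 2.86 ± 0.573 TPM and *Cx3cr1*, the fractalkine receptor, 2.68 ± 0.233 TPM, and each of these 3 overlaps a gene on the other strand with more counts. *Ccr2*, the receptor that guides monocytes, was low with 11, 7 and 0 counts in replicates 1, 2 and 3, and *Ccr7* had 0 in each library. *Ccr2* was picked once its values were known. In the list of receptors for other attractants, *C3ar1* and *C5ar1*, the receptors of the complement fragments C3a and C5a, were the highest. *C3ar1* had 712, 670.5 and 619.6 CPM and 378 ± 45.6 TPM, and *C5ar1* had 351, 319 and 345 CPM and 319.99 ± 16.98 TPM. *Ptafr*, the receptor of platelet-activating factor, had 35.9 ± 1.86 TPM and *C5ar2* 3.75 ± 0.765 TPM. The formyl peptide receptors *Fpr2* and *Fpr3*, the leukotriene B4 receptors *Ltb4r1* and *Ltb4r2* and the chemerin receptor *Cmklr1* were not detected, so 4 of 10 genes of this list were expressed.

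Receptors for antibodies and debris were abundant. All 5 Fc receptor genes were expressed, led by *Fcgr3* (CD16) with 376, 344 and 354 CPM and 501 ± 37.6 TPM and by the inhibitory *Fcgr2b* with 567, 531 and 490.3 CPM and 223 ± 27.3 TPM. *Fcgr1* (CD64), the high-affinity receptor, had 71.1 ± 3.48 TPM, *Fcgrt*, the neonatal receptor that recycles IgG, 57.8 ± 4.80 TPM and *Fcgr4* 51.2 ± 5.29 TPM. The inhibitory gene thus stood per length between *Fcgr3* and the other activating genes, *Fcgr1* and *Fcgr4*. Of 14 scavenger receptors 9 were expressed. *Lrp1*, a large endocytic receptor, had 2607, 2805 and 3008 CPM and 385 ± 20.6 TPM, and *Cd36*, which takes up oxidised lipoproteins and fatty acids, 436, 411 and 401 CPM and 282 ± 25.9 TPM. *Scarb2*, a lysosomal membrane protein, had 97.00 ± 8.32 TPM, *Msr1* (scavenger receptor A) 83.9 ± 18.3 TPM and the mannose receptor *Mrc1* 28.01 ± 3.43 TPM. *Msr1* was highest in replicate 1 and lowest in replicate 3, with 254, 220.1 and 178 CPM.

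Receptors for dying cells were expressed in 5 of 8 cases. The integrin chains *Itgb5* and *Itgav*, which bind the bridging protein MFG-E8, had 88.5 ± 3.65 TPM and 53.5 ± 8.49 TPM, and *Itgb3* had 29.5 ± 2.05 TPM. Of the TAM kinases, *Mertk* had 70.4, 75.2 and 64.00 CPM and 39.3 ± 5.55 TPM, *Axl* 6.36, 6.31 and 8.12 CPM and 3.33 ± 0.281 TPM, and *Tyro3* was low with 36, 18 and 19 counts. *Mertk* therefore stood above its relatives in each library, and *Timd4* (TIM-4), a phosphatidylserine receptor of resident macrophages, had 0 counts in each library. Among C-type lectin receptors 13 of 41 were expressed. *Clec4d* led with 183, 172 and 147 CPM and 255 ± 41.4 TPM, before *Clec5a* (127 ± 19.2 TPM), *Clec2d* (106 ± 15.7 TPM), *Clec4e* or Mincle, a receptor of mycobacterial glycolipids (81.8 ± 15.8 TPM), and *Clec12a* (54.1 ± 6.35 TPM). The 7 *Cd209* family genes in the table were low or not detected. In the TREM list, with 5 of 8 expressed, *Trem2*, a lipid-binding receptor that signals through DAP12, had 349, 354 and 403 CPM and 181 ± 5.40 TPM, *Trem1*, its inflammation-amplifying relative, 8.99 ± 1.79 TPM, *Hcst* (DAP10) 12.5 ± 1.06 TPM and *Treml1* 5.32 ± 2.57 TPM.

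Adrenergic receptors, which bind noradrenaline and adrenaline, were expressed in 3 of 9 cases. *Adrb1*, the β1 receptor, was one of them but not the highest, with 11.8, 15.7 and 19.1 CPM and 11.1 ± 2.16 TPM. *Adra1a*, an α1 receptor, had 3.61, 3.23 and 4.09 CPM and 1.01 ± 0.0586 TPM. The β3 receptor *Adrb3*, which is known from fat cells, had 0 counts in each library. Integrin chains were expressed in 16 of 26 cases, led by the β1 chain *Itgb1* with 1137, 1095 and 1031 CPM and 649.7 ± 67.3 TPM and the leukocyte β2 chain *Itgb2* with 529, 535 and 563 CPM and 432 ± 15.6 TPM. Of the α chains, *Itga5*, a partner of β1 in the fibronectin receptor, had 127 ± 6.14 TPM and *Itga4* 84.9 ± 13.7 TPM. Among the partners of β2, *Itgam* (CD11b, given above) stood above *Itgax* (CD11c, 7.28 ± 0.907 TPM) and *Itgal* (CD11a, 1.92 ± 0.174 TPM), and *Itgad* was low.

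**Figure D2:**
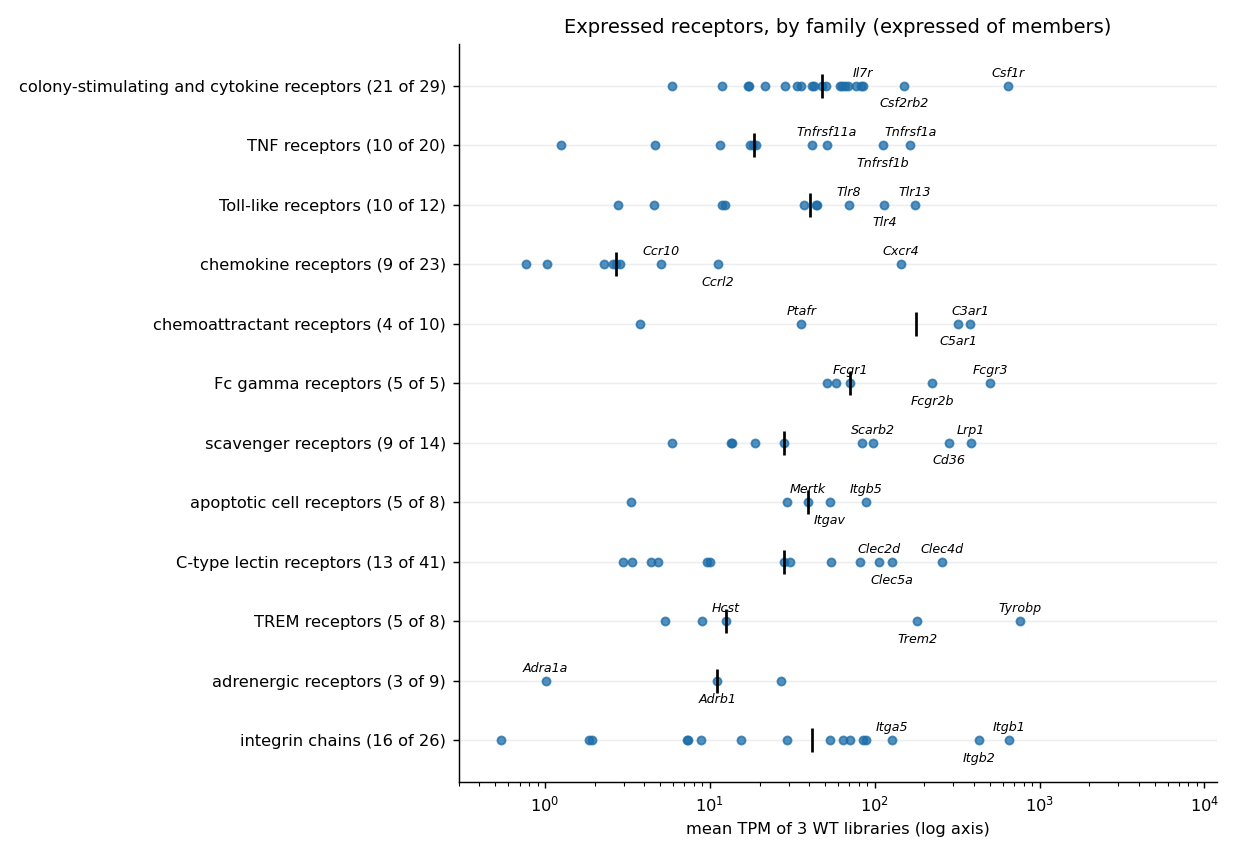
Mean TPM of 3 WT libraries (log axis) of each expressed member of 12 receptor families, 1 point a gene, with up to 3 of the highest of each family named and the median of the expressed members as a vertical bar; the expressed and total numbers of members stand beside each family. *Tyrobp*, *Itgb1* and *Csf1r* lay furthest to the right, and of the chemokine receptors *Cxcr4* alone lay above 100 TPM.

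Proteases of the lysosome were among the most abundant nuclear protein-coding genes of these cells. Of 24 genes in the cathepsin list, which also holds legumain (*Lgmn*), 11 were expressed. Their median was 401 TPM, against 19.5 TPM over all expressed protein-coding genes. *Ctsd* was followed per length by the cysteine proteases *Ctss* with 1244, 1205 and 1127 CPM and 2139 ± 226 TPM and *Ctsb* with 5129, 4734 and 5799 CPM and 2090.1 ± 83.4 TPM, which did not differ beyond their SDs. *Ctsz* had 1024 ± 34.9 TPM and *Lgmn*, the asparaginyl endopeptidase legumain, 583 ± 25.2 TPM. *Ctsa*, *Ctsl* and *Ctsc* lay at 401 ± 14.8 TPM, 226 ± 21.3 TPM and 82.1 ± 6.32 TPM, while *Ctsh* had only 1.86 ± 0.547 TPM. *Ctsk*, the collagen-degrading cathepsin of osteoclasts, was low, with 9, 43 and 21 counts. The neutrophil protease *Ctsg* and the placental cathepsins *Ctsj*, *Ctsm*, *Ctsq* and *Ctsr* had 0 counts in each library.

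Secreted and membrane metalloproteinases were fewer. Of 22 matrix metalloproteinases 8 were expressed, and *Mmp12* stood far above the rest. *Mmp13*, a collagenase, had 49.9, 42.6 and 43.5 CPM and 41.3 ± 4.74 TPM, *Mmp19* 9.32 ± 0.929 TPM, the gelatinase *Mmp9* 5.59, 4.35 and 6.00 CPM and 3.63 ± 0.421 TPM, and *Mmp27* 3.07 ± 0.128 TPM. *Mmp14*, the membrane-anchored collagenase, was not detected, with 0, 3 and 0 counts, and *Mmp8*, the collagenase of neutrophils, was low with 4, 1 and 0 counts. Among ADAM proteases, which shed proteins from the cell surface, 9 of 33 were expressed. *Adam8* had 713, 793 and 789 CPM and 401 ± 31.8 TPM, *Adam9* 205 ± 21.3 TPM, *Adam10* 154 ± 17.3 TPM and *Adam17*, which releases TNF, 240.3, 242 and 233 CPM and 81.2 ± 6.59 TPM. *Adam15* had 72.9 ± 7.51 TPM, and the other 4 expressed members were under 4 TPM. Of the related ADAMTS genes 3 of 19 were expressed, *Adamts10* with 21.6, 45.1 and 24.4 CPM, *Adamts15* with 3.46 ± 0.311 TPM and *Adamts1* with 1.32 ± 0.224 TPM. *Adamts10* was highest in replicate 2, and 5 members counted as expressed without replicate 1.

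Caspases, which carry out cell death and cleave IL-1β, were expressed in 8 of 10 cases. *Casp1* had 133, 121 and 102 CPM and 194 ± 35.2 TPM, *Casp8* 89.2 ± 10.4 TPM and *Casp4* 47.4, 48.8 and 28.5 CPM and 27.5 ± 8.87 TPM. *Casp4* was lowest in replicate 3. *Casp9* and *Casp2* were close together at 23.6 ± 0.817 TPM and 22.4 ± 2.37 TPM. Of plasminogen activators and serine proteases 5 of 19 were expressed, led by *Plau* (urokinase) with 242, 223 and 267 CPM and 249.7 ± 7.30 TPM. The proprotein convertases *Furin* and *Pcsk7* had 35.7 ± 3.01 TPM and 22.9 ± 2.64 TPM, and *Htra2*, a protease of mitochondria, 22.4 ± 2.06 TPM. The granule proteases of neutrophils (*Elane*, *Prtn3*), mast cells (*Cma1*, *Tpsb2*, *Mcpt8*) and cytotoxic lymphocytes (*Gzma*, *Gzmb*) had 0 counts in each library. Protease inhibitors were expressed in 6 of 19 cases, with 879 ± 44.2 TPM for the cysteine protease inhibitor *Cstb* (cystatin B), 491 ± 39.2 TPM for *Cst3* (cystatin C) and 404 ± 15.5 TPM for the metalloproteinase inhibitor *Timp2*. *Serpinb6a* had 198 ± 18.6 TPM and *Serpinb9*, an inhibitor of granzyme B, 8.47 ± 1.11 TPM. *Timp1* was low with 9, 18 and 7 counts, and *Timp3* was not detected.

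Of 46 transcription factors in the myeloid list 43 were expressed, with the other 3 (*Nr1h3*, *Batf* and *Cebpe*) low. The list also holds immediate early genes such as *Klf6*, *Jun* and *Atf3*, so its members are not all particular to this lineage. *Klf6* was the highest with 439, 454 and 406 CPM and 241 ± 28.5 TPM, followed by *Id2*, an inhibitor of bHLH factors (213 ± 23.7 TPM), the AP-1 subunit *Jun* (184 ± 14.6 TPM) and *Atf3* (163 ± 5.16 TPM). *Spi1*, which encodes PU.1, the factor that macrophage fate requires, had 138, 127 and 170.1 CPM and 130.2 ± 11.3 TPM, and was highest in replicate 3. *Maf*, which helps to hold macrophages in their mature state, is outside the 5 highest and was picked once its values were known. It had 455, 418 and 450.02 CPM and 130.02 ± 6.59 TPM. *Fli1*, an ETS factor like PU.1, had 108 ± 18.4 TPM. *Cebpe*, the C/EBP factor of late granulocytes, had 2, 2 and 0 counts and *Nr1h3* (LXRα) 16, 21 and 21 counts.

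All 4 factors of the MiT/TFE family, which drive lysosomal genes, were expressed, *Mitf* with 103, 107 and 98.3 CPM and 40.5 ± 4.25 TPM, *Tfe3* with 106, 114 and 121 CPM and 29.8 ± 1.68 TPM, *Tfec* with 23.6 ± 4.28 TPM and *Tfeb* with 8.86 ± 0.713 TPM. All 9 interferon regulatory factors were expressed as well. *Irf7* had 144, 151 and 171 CPM and 99.8 ± 4.80 TPM, *Irf5* 74.5 ± 4.96 TPM, *Irf9*, the DNA-binding part of the factor ISGF3, 52.5 ± 4.46 TPM, *Irf1* 34.3 ± 4.33 TPM and *Irf8*, a partner of PU.1 in monocytes, 86.4, 82.7 and 96.1 CPM and 30.4 ± 0.410 TPM. Of the STAT factors, which carry cytokine signals to the nucleus, 6 of 7 were expressed, led by *Stat2* with 289, 329 and 317 CPM and 128 ± 12.3 TPM and *Stat6*, the target of IL-4, with 176, 177 and 191 CPM and 100.1 ± 2.52 TPM. *Stat3* and *Stat5b* had 38.6 ± 1.31 TPM and 30.1 ± 1.30 TPM, and *Stat4* had 0 counts in each library. In the STAT list the median gap between the highest and the lowest library was 0.13 on the log2 scale of CPM, against 0.27 over all expressed protein-coding genes.

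Factors of other fates were mostly absent. Of 8 factors tied to macrophages of particular tissues only *Pparg*, the factor of alveolar macrophages, with 29.4, 31.3 and 28.5 CPM and 24.6 ± 2.66 TPM, and *Id1* with 19.99 ± 4.38 TPM were expressed. *Gata6* (peritoneal cavity), *Sall1* (microglia) and *Tcf21* had 0 counts in each library, and *Spic*, the factor of splenic red pulp macrophages, had 0, 5 and 3 counts. Of the GATA factors 1 of 6, and of the other families 1 of 9 PAX, 2 of 19 SOX and 2 of 39 HOX factors were expressed. Among these were *Gata3* with 1.46, 1.01 and 1.43 CPM, *Pax3* with 4.21, 4.39 and 3.85 CPM, *Sox7* with 13.5, 12.3 and 11.1 CPM, *Sox9* with 1.29, 1.58 and 1.40 CPM and *Hoxb4* with 2.92, 1.88 and 2.01 CPM. Of these, all but *Sox7* lay under 5 CPM, and *Gata3* was no longer counted as expressed after TMM scaling. Of 24 factors that define other lineages, 5 were expressed, among them *Zbtb7b*, a factor of CD4 T cells, with 73.6, 69.7 and 64.9 CPM and 30.2 ± 3.47 TPM, and *Tal1*, a factor of haematopoietic stem and erythroid cells, with 50.7, 48.4 and 51.7 CPM and 27.9 ± 1.05 TPM. The others were *Foxp3* with 1.81, 3.98 and 1.16 CPM, which overlaps another gene, *Sox9* and *Gata3*. *Gata1* and *Gfi1b* (erythroid cells), *Pax5* and *Ebf1* (B cells), *Bcl11b* and *Tbx21* (T cells), *Gata2*, *Myb*, *Myod1*, *Nanog* and *Sox2* were not detected.

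**Figure D3:**
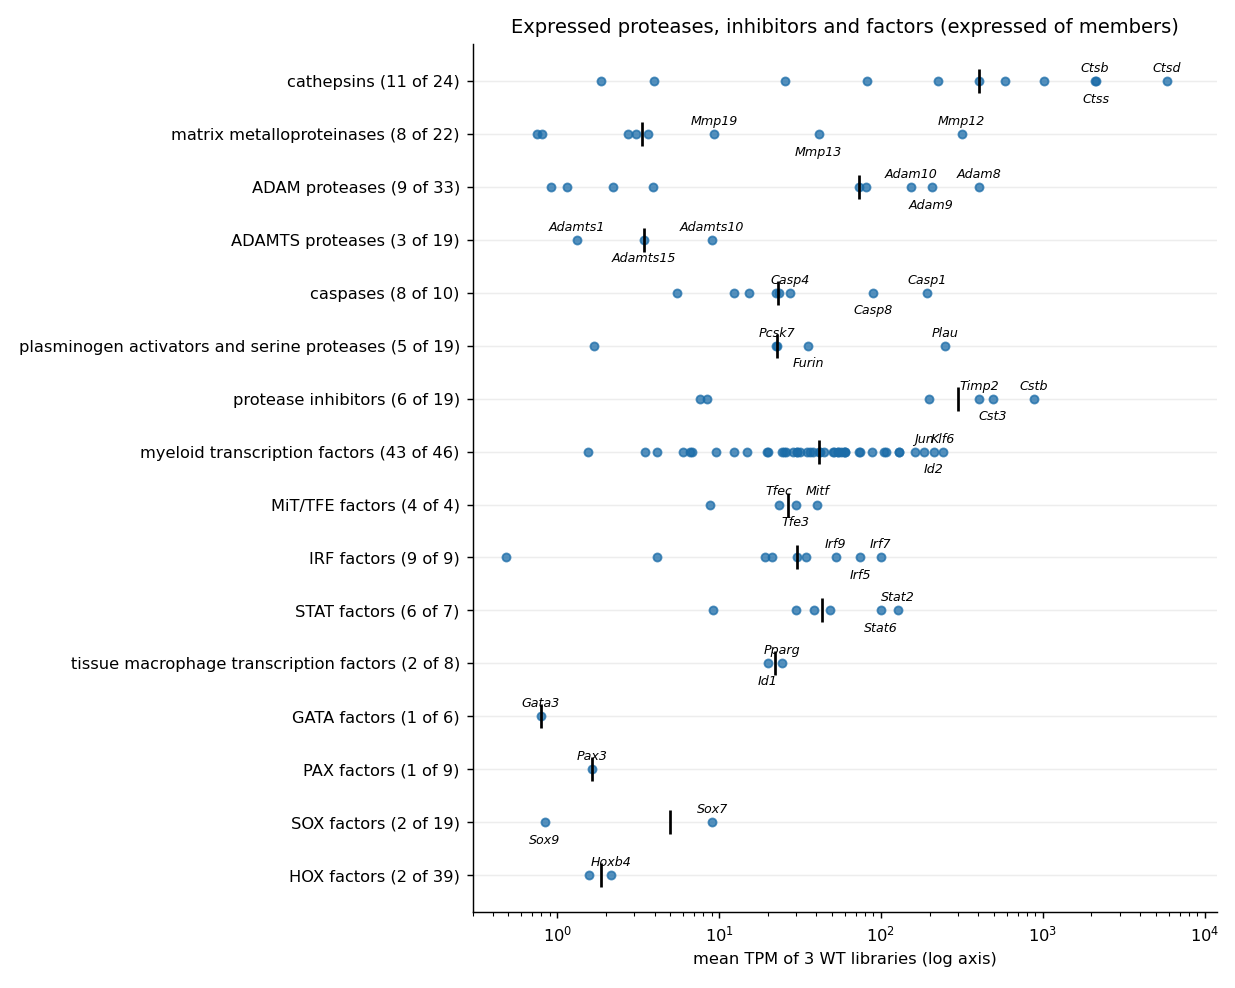
Mean TPM of 3 WT libraries (log axis) of each expressed protease, protease inhibitor and transcription factor, 1 point a gene, in 16 lists, with up to 3 of the highest named and the median of the expressed members as a vertical bar. *Ctsd* lay furthest to the right with 5823 TPM, and the expressed GATA, PAX, SOX and HOX factors lay under 10 TPM.

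Markers of other cell types that could be present in a marrow culture were next described. Their lists were also chosen with earlier results of these data known. None of 13 neutrophil, 11 B-cell, 9 NK-cell, 11 mast cell and basophil, 7 eosinophil, 10 fibroblast and stromal, or 7 adipocyte markers was expressed. Of the defining genes, *Mpo*, *Elane*, *Ly6g* and *S100a9* (neutrophils), *Cd79b* (B cells), *Ncr1* and *Nkg7* (NK cells), *Cpa3*, *Fcer1a* and *Ms4a2* (mast cells and basophils), *Prg2* (eosinophils), and *Dcn*, *Lum* and *Pdgfra* (fibroblasts) had 0 counts in each library. Among the low genes of these lists, *Cr2* (CD21), a B-cell complement receptor, had 2.32, 1.95 and 0.955 CPM and counted as expressed when replicate 3 was left out. The summed level of the neutrophil list was 2.28 TPM, that of the B-cell list 1.56 TPM and that of the fibroblast list 0.110 TPM, against 6078 TPM for the 7 macrophage markers. Erythroid cells had 1 of 9 markers expressed, *Alas2*, which overlaps the higher gene *Apex2* on the other strand, with 3.23, 4.20 and 1.88 CPM, and the globin genes *Hbb-bs* and *Hbb-bt* had 0, 1 and 0 and 0, 0 and 0 counts. Epithelial cells had only *Cdh1* (E-cadherin) with 1.68, 2.10 and 1.02 CPM, neurons only *Tubb3* (β3-tubulin) with 4.69, 3.30 and 4.84 CPM, and the keratins *Krt8* and *Krt18*, the synaptic genes *Snap25* and *Syt1* and the noradrenaline synthesis genes *Th* and *Dbh* were not detected.

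Some markers of other lineages were nevertheless high. In RNA from a whole culture, fewer cells with a transcript and less of it per cell cannot be told apart. *Cd28*, the costimulatory receptor of T cells, had 219, 205 and 174 CPM and 79.6 ± 13.3 TPM, at rank 1248. The other expressed genes of the T-cell list were *Lck* with 1.98, 2.33 and 2.01 CPM and *Cd5* with 2.62, 3.42 and 4.13 CPM, while *Cd3e*, *Cd3g*, *Cd2* and *Cd8b1* had 0 counts in each library and *Cd3d* 3, 0 and 0. Of the other chains of the T-cell receptor complex in the list, *Cd247* and *Trac* were low, with 5, 17 and 18 and 1, 3 and 7 counts. *Vwf*, von Willebrand factor, which is known from endothelial cells and platelets, had 266, 275 and 307 CPM and 42.7 ± 1.46 TPM, at rank 2672. *Pf4*, platelet factor 4, had 38.02, 35.96 and 39.4 CPM and 127 ± 3.50 TPM, at rank 647. In the platelet list *Treml1* and *Gp1ba* were expressed at 2.19, 4.54 and 2.35 CPM and 1.03, 2.74 and 1.67 CPM, and *Ppbp*, *Gp9* and *Gp1bb* were not detected. In the endothelial list *Kdr* (VEGFR2) had 43.9, 43.9 and 35.6 CPM and 11.1 ± 1.93 TPM, *Emcn* and *Sox17* were not detected, and *Cdh5* (VE-cadherin) and *Pecam1* were low with 29, 19 and 39 and 4, 2 and 16 counts. *Vwf*, *Pf4* and *Kdr* were each at similar CPM in the 3 libraries, with CVs of 7.58%, 4.54% and 11.7%.

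In the list of haematopoietic progenitors, *Ly6a* (Sca-1), a surface marker of mouse stem cells, had 229.7, 194 and 226 CPM and 436 ± 31.5 TPM, at rank 124. *Cd48*, which most leukocytes carry, had 39.3, 33.2 and 32.99 CPM and the homeobox gene *Meis1* 9.33, 11.7 and 9.96 CPM. *Cd34* was low with 3, 3 and 4 counts, and *Kit*, *Flt3*, *Hoxa9* and *Mecom* were not detected. Of 10 monocyte markers, *Fn1* (fibronectin) had 301, 299.9 and 293 CPM and 62.1 ± 4.71 TPM and *Vcan* 1.38, 1.13 and 1.02 CPM, while *Ly6c2* was low with 3, 5 and 6 counts and *Plac8*, *Hp* and *Chil3* had 0 in each library. Dendritic cells had 3 of 11 markers expressed, *Itgax* with 14.3, 15.3 and 13.4 CPM, *Clec10a* with 4.30, 3.64 and 4.06 CPM and *Ciita*, the activator of MHC class II genes, with 4.34, 6.61 and 4.88 CPM. *Ccr7* and *Cd209a* had 0 counts in each library.

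**Figure D4:**
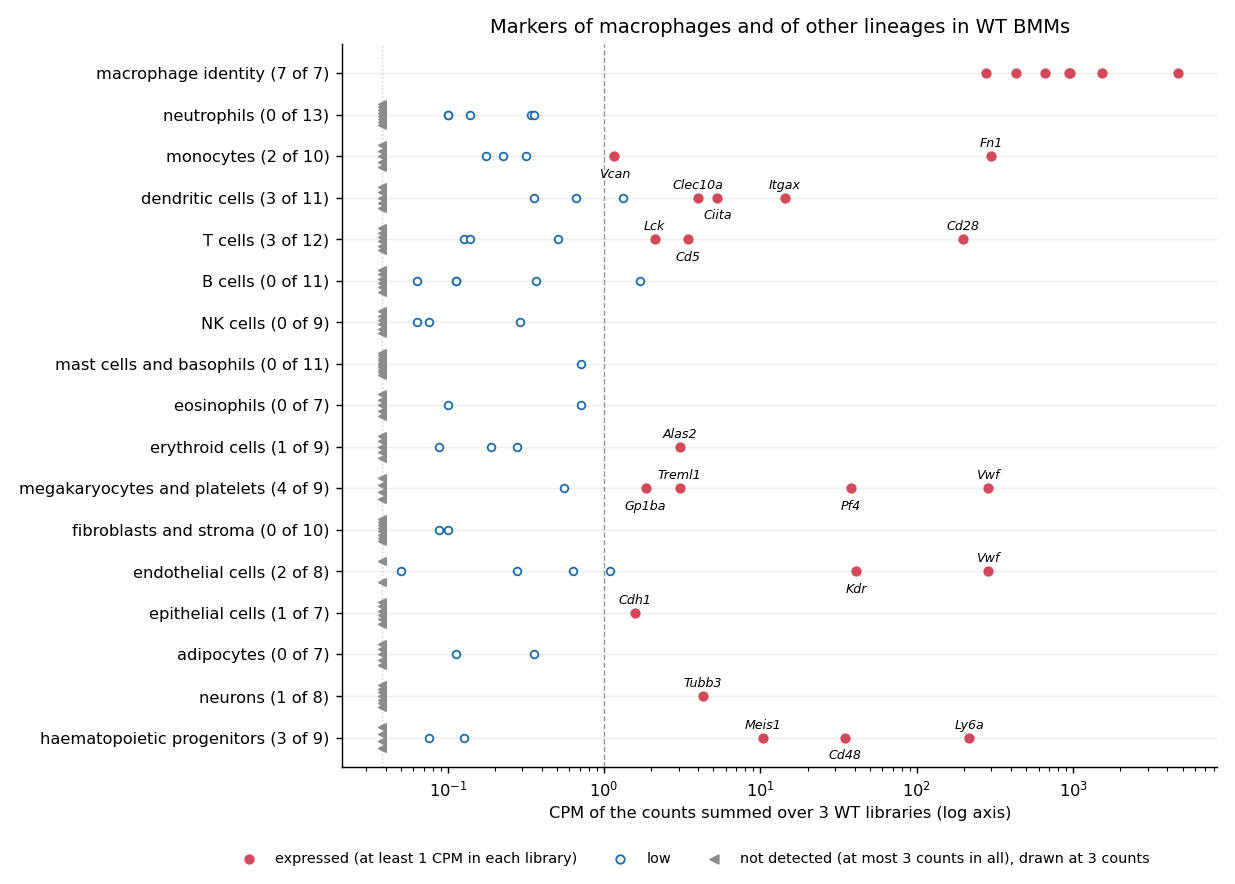
CPM of the counts summed over 3 WT libraries (log axis) for each member of the macrophage list and of 16 lists of other lineages, with expressed genes filled and named, low genes open, and genes not detected as triangles at 3 counts (0.0379 CPM); the dashed line marks 1 CPM. The 7 macrophage markers lay to the right of nearly all others, and *Fn1*, *Vwf*, *Ly6a* and *Cd28* were the markers of other lineages above 100 CPM.

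Lists that separate kinds of macrophages gave a mixed picture. All 10 genes of lipid-associated macrophages, the cells that gather around lipid-laden tissue, were expressed, and 4 of them (*Spp1*, *Ctsd*, *Lgals3* and *Gpnmb*) were among the 16 highest nuclear protein-coding genes per length. Further members were *Cd9*, a tetraspanin (307 ± 9.20 TPM), *Plin2*, a coat protein of lipid droplets (249.7 ± 12.9 TPM), *Trem2*, *Lpl* and *Cd63* (83.6 ± 3.07 TPM), and the lowest was *Fabp5*, a fatty acid-binding protein, with 8.17, 8.48 and 9.89 CPM and 6.01 ± 0.310 TPM. Of 11 osteoclast genes 5 were expressed, *Tnfrsf11a*, *Nfatc1* (37.99 ± 1.64 TPM), *Itgb3*, *Atp6v0d2* (15.1 ± 1.65 TPM) and *Mmp9*. *Acp5*, tartrate-resistant acid phosphatase, and *Calcr*, the calcitonin receptor, had 0 counts in each library, and the fusion genes *Dcstamp* and *Ocstamp* had 7, 7 and 11 and 0, 0 and 2 counts.

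Genes of resident macrophages were expressed in part. Of 9 microglial genes 6 were expressed. They included *P2ry12*, an ADP receptor that was not the highest of them, with 40.4, 38.7 and 32.5 CPM and 35.7 ± 5.89 TPM, and *Fcrls*, *Cx3cr1*, *Tmem119* and *Gpr34* under 8 TPM each. Kupffer cells of the liver had 1 of 4 genes expressed (*Cd5l*, 2.71, 2.51 and 4.64 CPM), with *Clec4f* and *Timd4* at 0 counts in each library and *Vsig4* low. Alveolar macrophages had 1 of 6 (*Pparg*) and peritoneal macrophages 2 of 6, *Icam2* with 1.94, 1.28 and 1.84 CPM and *Prg4* with 2.54, 2.03 and 1.67 CPM, which overlaps the much higher gene *Tpr* on the other strand.

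Effector genes of activation were expressed in part in these unstimulated cells. The share was 41.7% in the classical and 20% in the alternative list, against 50.7% of all protein-coding genes. Of 12 classical activation genes 5 were expressed: *Tnf* with 36.2, 46.99 and 34.8 CPM and 58.7 ± 13.2 TPM, the chemokine *Cxcl10* with 28.9, 25.7 and 29.7 CPM and 30.3 ± 1.34 TPM, the costimulatory ligands *Cd80* and *Cd86* with 7.77 ± 2.35 TPM and 2.83 ± 0.0762 TPM, and *Ptgs2* (cyclooxygenase 2) with 2.12 ± 0.162 TPM. *Nos2*, *Il1b* and *Il6*, named after their values were seen, were low with 11, 15 and 12, 12, 6 and 5 and 2, 10 and 3 counts. *Il12a*, *Il12b* and *Il23a* were not detected. Of 10 alternative activation genes, *Mrc1* and *Cd163* (15.01, 13.3 and 11.2 CPM) were expressed, *Arg1* (arginase 1) was low with 20, 59 and 33 counts, and *Retnla*, *Chil3* and *Ccl17* had 0 in each library. By contrast all 12 proliferation genes were expressed. *Mki67* had 1918, 2076 and 1604 CPM and 454 ± 85.1 TPM, *Pcna*, the sliding clamp of DNA replication, 241 ± 18.99 TPM, *Top2a*, topoisomerase IIα, 221 ± 30.3 TPM, *Ccnd1* (cyclin D1) 193 ± 8.25 TPM and *Mcm5*, a subunit of the replicative helicase, 137 ± 7.76 TPM. *Mki67* was highest in replicate 2 and lowest in replicate 3. All 12 were thus measured in cultures described as immortalized lines growing in CSF-1.

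The spread between the 3 libraries was small for most genes. Over the 10992 expressed protein-coding genes the median CV of the CPM was 9.82%, with quartiles of 5.91% and 15.6%, and edgeR gave a common biological coefficient of variation of 12.8%. The CV fell with abundance, from a median of 17.6% at 1 to 10 CPM to 9.36% at 10 to 100 CPM and 7.06% above 100 CPM. Pearson's r of log2 CPM across genes, which are not independent replicates, was 0.993 between replicates 1 and 2, 0.989 between 1 and 3 and 0.984 between 2 and 3. The median absolute log2 ratio between libraries was 0.12, 0.18 and 0.21 for these pairs, against about 0.05, 0.05 and 0.04 for counting alone. Replicates 2 and 3 were the furthest apart. Replicates 2 and 3 also had the highest and the lowest share of reads outside genes (40.4% and 25.5%), and the part of that share in the spread was not tested.

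Of the 8906 protein-coding genes with a mean of at least 10 CPM, 53 (0.595%) differed at least 2 times between the highest and the lowest library. Replicate 2 was the highest library for 35 of them, replicate 3 for 17 and replicate 1 for 1. Without replicate 2 this number was 3, without replicate 3 it was 6, and without replicate 1 it was 52, so nearly all of these genes set replicates 2 and 3 apart. The widest was *Fos*, an immediate early gene of the AP-1 family, with 3.27, 31.3 and 7.06 CPM. *Dusp1*, a phosphatase that is induced with it, had 25.9, 75.7 and 28.04 CPM, and both were highest in replicate 2. *Fosb* was also highest in replicate 2, with 13, 702 and 11 counts, but lay under 10 CPM on average, and was picked once its values were known.

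*Lars2*, the mitochondrial leucyl-tRNA synthetase, had 30.4, 46.2 and 193 CPM, and *Rps21*, a ribosomal protein of the small subunit, 22.8, 10.9 and 33.3 CPM, both highest in replicate 3. Mitochondrial rRNA genes took 0.00609%, 0.0108% and 0.0178% of the counts, in the same order of libraries as *Lars2*. Whether reads of leftover rRNA enter the counts of *Lars2* was not tested. The rest of the 10 widest were *mt-Atp8* (23.2, 24.7 and 9.24 CPM), *Fam196b* (32.4, 53.2 and 21.9 CPM), *Hist1h2ao* (22.1, 14.5 and 34.7 CPM), *Ccdc18* (19.4, 25.6 and 10.7 CPM), *Zfp971* (15.5, 20.1 and 8.49 CPM) and *Hist1h2ab* (21.2, 12.3 and 28.96 CPM). *Fam196b* overlaps a gene on the other strand, and histone genes have near-identical copies, so the counts of a single histone gene are uncertain. Of the 53 genes, 13 were replication-dependent histone genes, all highest in replicate 3, and 3 were mitochondrially encoded, all highest in replicate 2. In a list of these histones drawn up after the values were seen, 55 of 57 expressed genes were highest in replicate 3 and 50 were lowest in replicate 2, and their summed CPM was 6505, 5881 and 9945. All 13 mitochondrially encoded genes were highest in replicate 2 and lowest in replicate 3. Most replication-dependent histone transcripts carry no poly(A) tail, which is background here, and their part in the spread of other genes was not tested.

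At the other end, *Psmc2*, an ATPase of the proteasome, had 104, 104 and 104 CPM, and *Etv3*, an ETS repressor, 121, 121 and 121 CPM. *Hdlbp*, the RNA-binding protein vigilin, had 389, 388 and 389.9 CPM, and *Sf3a1*, a splicing factor, 102, 101 and 102 CPM. Each of these had a CV under 1% across the 3 libraries. They were picked as the smallest CVs among 2287 expressed genes with a mean of at least 100 CPM. At the 2417, 2771 and 3052 counts of *Psmc2*, counting error alone typically gives a wider spread. The small CVs therefore do not mark these genes as more stable than others. Between these extremes, the median deviation of the 7 macrophage markers from their mean was 0.03, -0.05 and 0.04 on the log2 scale in replicates 1, 2 and 3.

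**Figure D5:**
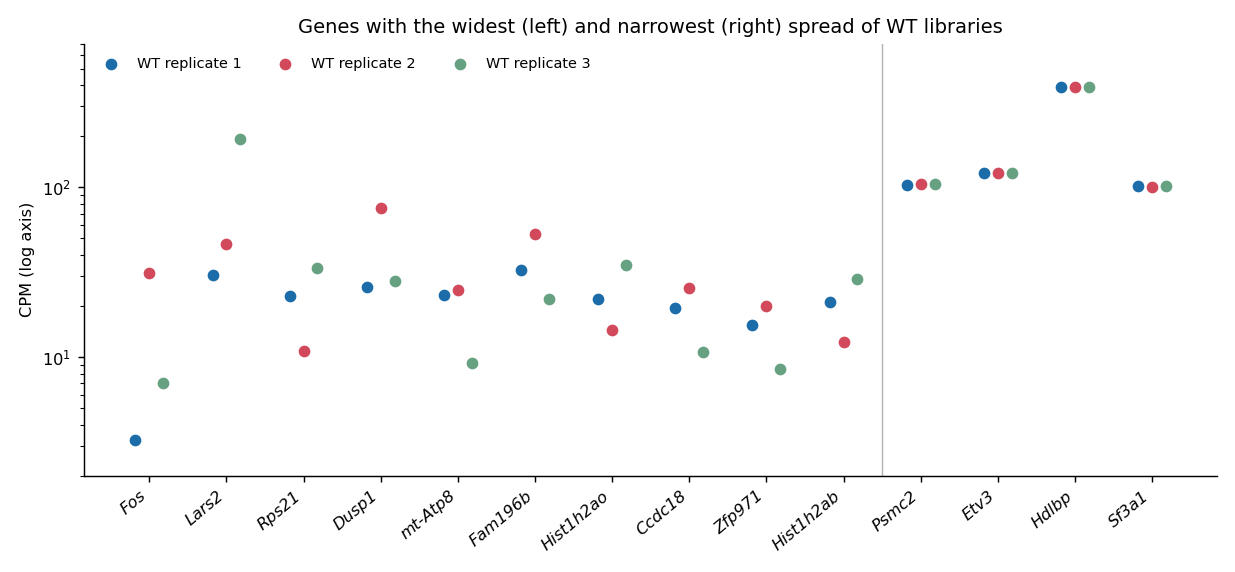
CPM in each WT library (log axis) of the 10 protein-coding genes with the widest ratio of the highest to the lowest library among those with a mean of at least 10 CPM (left of the line) and of 4 of the 5 with the smallest coefficient of variation among those with a mean of at least 100 CPM (right). *Fos* and *Dusp1* were highest in replicate 2, *Lars2* in replicate 3, and the points of the 4 genes on the right coincided.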

How the data were processed

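RNA-seq of the 3 WT libraries was used, with groups taken from the labels. Per the labels and the study's methods, trimming was done by the authors with Trim Galore 0.5, alignment to GRCm38 with TopHat2 2.0.13 (a read kept at 1 location at most) and counting over Ensembl genes with HTSeq 0.6.1p1. The deposited values are raw counts of 47729 genes, not normalized. The 5 summary rows that name no gene stayed out of all totals. They included 25.5% to 40.4% of the counted reads outside genes and 4.55% to 7.15% ambiguous reads.

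Symbols, gene types and exon lengths came from GENCODE M21, which matched 47310 of 47729 genes. The 419 unmatched genes held at most 0.156% of the counts. CPM used all gene counts, and TPM the union of exons. Totals of 23253869 to 29314253 counts set the precision. No test between groups was run. The spread was estimated with an intercept-only fit of edgeR 4.0.16 in R 4.3.3, whose code was also run on simulated data. Python 3.11.15 with pandas 2.3.3, and Biopython 1.88 for the alignment, did the rest. RefSeq promoters of GRCm38.p6 matched 16381 of 21666 protein-coding genes with a unique symbol (75.6%). A comparison of promoters between expressed and silent genes is not reported here.

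Named are the 7 markers and *Aif1*, the 15 highest genes by TPM and 5 by CPM, up to 5 highest expressed members of each list, every expressed member of another lineage's list and its absent defining genes, the 10 widest (mean of at least 10 CPM) and 5 narrowest (at least 100 CPM) genes, and close copies of these. A few genes that this rule names are not reported here. Other genes named are extra examples chosen from the lists once their values were known. The members and lists were chosen with earlier results of these data known, and 4 lists were added after the values were seen. Of 695 genes in the 56 lists, 289 (41.6%) were expressed. *Ahsp* had no match. Alternatives were other thresholds, size factors (TMM and DESeq2 1.42.0), lengths, thinning, genes free of overlap, and leaving out each library.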

Additional observations from a re-analysis of the deposited data

How the results depend on the processing

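The count of expressed protein-coding genes, 10992, lay between 9652 (at 5 CPM) and 12974 (at least 1 count in each library) under the other thresholds and scalings, and was 10990 with TMM and with DESeq2 size factors. It fell to 6941 when only genes with no gene on the other strand were counted, since fewer genes were then examined. Per length, the 10 most abundant genes took 7.35% and the first 100 took 22.99%. Of the genes with a mean of at least 50 CPM, 15 differed at least 2 times between libraries, and with TMM scaling 43 did. Leaving out each library in turn gave 11025 to 11151 expressed genes, shares of 4.62% to 4.86% for the first 10 and 15.7% to 16.3% for the first 100, and 293 to 294 expressed list genes. It gave median CVs of 5.97% to 10.2%, biological coefficients of variation of 8.78% to 16.1%, and 3 to 52 genes that differed at least 2 times. The low ends of both spreads came without replicate 3, and 3 genes remained to differ without replicate 2. Of the list genes, 229 were expressed at 5 CPM, where no GATA, PAX or HOX factor was, 315 at 0.5 CPM, and 205 when only genes with no gene on the other strand were counted. Of the results for single lists and markers, 428 stayed within their limits and 69 moved. Chemokine receptors fell to 2 and matrix metalloproteinases to 3 at 5 CPM. Without genes that overlap another on the other strand, the expressed myeloid factors fell to 24 and the cathepsin list to 6. Depth limits the absent genes: 3 counts in all correspond to 0.0379 CPM. No paired analysis was possible because only the WT libraries were used and no test between groups was run.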

Other observations

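Genes induced within minutes of a stimulus were examined as a group after *Fos* was seen to be the widest gene between the libraries. Of 18 immediate early genes 15 were expressed and 3 were low. *Klf6*, *Jun* and *Atf3* were the highest of them, with 241 ± 28.5, 184 ± 14.6 and 163 ± 5.16 TPM (SD, n = 3). *Zfp36*, which encodes tristetraprolin, a protein that destabilises cytokine mRNAs, had 21.2, 42.2 and 21.7 CPM in replicates 1, 2 and 3. *Egr1* had 9.46, 16.2 and 11.9 CPM. Both were highest in replicate 2, as were *Fos* and *Dusp1*. In contrast, *Ier3* with 14.1, 14.3 and 19.3 CPM was highest in replicate 3 and *Jun* with 222, 249 and 251 CPM was nearly level in replicates 2 and 3. Over the 15 expressed genes the median log2 deviation from their own mean was -0.17, 0.07 and 0.06 in replicates 1, 2 and 3. By this median the expressed genes were nearly level in replicates 2 and 3. The CPM summed over all 18 genes was 1004, 1215 and 1058, highest in replicate 2.

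Cytosolic ribosomal protein genes were expressed in 77 of 80 cases, with a median of 59.9 TPM over those expressed and a highest level of 927 TPM. Genes annotated as processed pseudogenes took 3.61% of all gene counts, and a read was kept at 1 location only. How far reads of ribosomal protein genes, *Rps21* among them, were counted for such pseudogenes was not tested, so these levels are uncertain. The median log2 deviation of the expressed genes from their own mean was 0.05, -0.13 and 0.11 in replicates 1, 2 and 3.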
